A study of Mus musculus with 22 samples.

Results

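The genes described here are 9 genes of the mouse retinoid pathway, which takes up, converts, carries, senses and degrades vitamin A and its active product retinoic acid: Stra6, Crabp2, Aldh1a3, Dhrs3, Rdh10, Rara, Rarb, Rarg and Cyp26b1. They were taken by symbol from a table of raw counts for 49671 mouse genes, and they were chosen by role and by their differences between the groups below, since results of that comparison were already known. Each symbol matched 1 Ensembl identifier in the table. Counts came from 22 RNA sequencing libraries of wild-type TH2 cells, which are CD4 T helper cells grown in conditions that favour type 2 cytokines. In 11 libraries the cells had received 100 nM calcitriol, the hormone made from vitamin D, for the last 24 hours of culture. In the other 11 they had received 2% ethanol, the solvent, and the labels leave unstated how much ethanol the calcitriol wells contained. RNA was taken on day 5 of polarization in both groups. Mice were Balb/c of both sexes, obtained at 6 to 8 weeks of age, and their colony had been kept for 2 generations on diets with 400, 1000 or 4000 IU of vitamin D3 per kg. The mouse, sex, diet and culture behind a library are not labelled, so p-values measure the spread between libraries, which may in part be technical.

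Retinol circulates bound to a binding protein and can enter cells through the receptor STRA6. Inside the cell RDH10 oxidises retinol to retinaldehyde, DHRS3 turns retinaldehyde back into retinol, and enzymes of the ALDH1A family oxidise retinaldehyde irreversibly to retinoic acid. CRABP2 carries retinoic acid to the nucleus, where the receptors RARA, RARB and RARG bind DNA as dimers with RXR, a partner they share with the vitamin D receptor, and enzymes of the CYP26 family degrade retinoic acid. In the gut, retinoic acid made by dendritic cells gives T cells the receptors with which they return to the intestine.

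The receptor dimer of RAR and RXR is known to bind direct repeats of a hexamer close to AGGTCA, and the spacing of 5 bases is the classical one. RefSeq promoter windows (GRCm38.p6, 250 bases before to 50 bases after a start site) were available for 6 of the 9 genes, in 15 windows. Each window was searched on both strands for 4 hexamers, which were AGGTCA itself, its variant with an altered middle AGTTCA, a further variant that opens with another base GGGTCA, and the variant with both alterations, which reads GGTTCA. A direct repeat of any of these with 5 bases between them was found in 1 of the 15 windows, that of Rarb. It was also found in the window of Cyp26a1, which encodes a retinoic acid hydroxylase and is not among the 9 genes. Across all 32851 windows of the table, 32 held such a repeat, or 0.0974%. The window of Rarb, at chr14:16575427-16575726 on the minus strand, and that of Cyp26a1, at chr19:37697558-37697857 on the plus strand, are shown first because they hold this repeat, given in capitals. In Rarb the repeat lay 36 bases before the start site, with GGTTCA as its upstream hexamer and AGTTCA as its downstream one. In Cyp26a1 it lay 15 bases before the start site on the opposite strand, with the hexamer AGTTCA at both positions. The windows of Stra6 at chr9:58133825-58134124 and of Dhrs3 at chr4:144892577-144892876, both on the plus strand, are shown because these genes differed most between the groups among those with a window. The capitals in Stra6 mark its only hexamer, and Dhrs3 had none in any of its 3 windows. A single hexamer is common, being present in 43.7% of all windows.
Rarb: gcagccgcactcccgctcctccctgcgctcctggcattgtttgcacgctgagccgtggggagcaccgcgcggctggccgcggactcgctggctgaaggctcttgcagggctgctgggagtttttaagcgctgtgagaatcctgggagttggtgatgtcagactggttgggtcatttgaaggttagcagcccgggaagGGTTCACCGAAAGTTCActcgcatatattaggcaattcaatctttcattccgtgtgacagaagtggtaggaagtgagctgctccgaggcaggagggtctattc
Cyp26a1: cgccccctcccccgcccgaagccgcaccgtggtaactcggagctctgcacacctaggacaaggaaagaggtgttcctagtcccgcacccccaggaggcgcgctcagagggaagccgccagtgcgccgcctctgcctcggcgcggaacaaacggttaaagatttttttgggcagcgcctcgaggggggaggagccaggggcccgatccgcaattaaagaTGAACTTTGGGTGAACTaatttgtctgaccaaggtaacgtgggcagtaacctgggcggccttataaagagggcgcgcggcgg
Stra6: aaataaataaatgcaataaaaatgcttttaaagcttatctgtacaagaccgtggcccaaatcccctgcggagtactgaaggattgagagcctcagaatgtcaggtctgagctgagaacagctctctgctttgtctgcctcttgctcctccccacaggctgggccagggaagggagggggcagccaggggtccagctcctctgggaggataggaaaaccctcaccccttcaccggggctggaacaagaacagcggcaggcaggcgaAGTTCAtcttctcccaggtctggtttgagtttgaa
Dhrs3: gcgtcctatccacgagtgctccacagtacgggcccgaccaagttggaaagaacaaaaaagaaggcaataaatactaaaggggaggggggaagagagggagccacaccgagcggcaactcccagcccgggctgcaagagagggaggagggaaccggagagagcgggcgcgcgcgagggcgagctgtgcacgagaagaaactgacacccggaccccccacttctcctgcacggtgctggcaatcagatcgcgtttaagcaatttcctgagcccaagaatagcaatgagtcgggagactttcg
A repeat with 3 bases between the hexamers, the spacing preferred by the vitamin D receptor, was found in 0 of the windows of these 7 genes and in 0.0396% of all windows. These matches describe the letters of the windows and were not tested as binding sites.

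Total counts ran from 3214171 to 12431051 in calcitriol libraries, with a median of 8534490, and from 3618784 to 20258430 in vehicle libraries, with a median of 7320919. Levels are given in CPM, the count of a gene scaled to library size with TMM factors. A log2 change is positive where calcitriol libraries were higher and stands beside its standard error from edgeR. Calcitriol replicates 1 and 2 and vehicle replicates 1 and 2 stood apart on the second principal component, with scores of -16.3, -15.9, -12.2 and -12.4, against -6.23 or higher in all others. Of 11905 genes that passed the filter on low counts, 31.5% passed an adjusted p of 0.05 in edgeR's quasi-likelihood test, 16.1% with higher and 15.5% with lower values in calcitriol libraries. Scaled to total counts alone, 1319 genes were higher and 2878 lower, against 1911 and 1844 with TMM factors. T helper markers were detected in every library: the summed level of Cd3e, Cd4, Trac, Gata3, Il4 and Il13 was 1305 to 1555 CPM in calcitriol and 1470 to 1746 CPM in vehicle libraries, with Cd3e higher and Cd4 and Il13 lower (edgeR, adjusted p = 0.0353, 0.0153 and 0.0204).

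Of the 9 genes, 7 passed the filter. The genes had been chosen knowing this comparison, so their differences are given as descriptions with no p-value. Past the threshold were 1 gene that was higher, against a background of 16.1%, and 3 that were lower, against 15.5%, and nothing is read from these shares. The uptake receptor Stra6, the binding protein Crabp2 and the retinaldehyde dehydrogenase Aldh1a3 had lower values and the retinaldehyde reductase Dhrs3 had higher values, while the retinol dehydrogenase Rdh10 and the receptors Rara and Rarg overlapped between the groups. In bulk RNA, fewer cells that make a transcript and less transcript per cell cannot be told apart.

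Stra6 (ENSMUSG00000032327, chr9:58063788-58153996), the membrane receptor for the retinol carrier, ranged from 8.27 to 24.3 CPM in calcitriol libraries with a median of 14.9, and from 31.7 to 116 CPM in vehicle libraries with a median of 70.7. The highest calcitriol library was below the lowest vehicle library. The mean was 16.4 ± 5.60 CPM with calcitriol and 72.4 ± 28.3 CPM with vehicle (SD, n = 11 each), a log2 change of -2.11 ± 0.24. Within each group Stra6 varied widely, by 2.94-fold in calcitriol and 3.64-fold in vehicle libraries. The highest values were those of replicates 7, 8 and 9 in either group, at 22.8, 24.3 and 23.6 CPM with calcitriol and 116, 107 and 103 CPM with vehicle. Replicates 3 and 4 were lowest, at 9.54 and 8.27 CPM with calcitriol and 33.4 and 31.7 CPM with vehicle. Replicate numbers were given in accession order, and the labels do not say whether libraries of like number share a source. On the second principal component several such libraries lay close together, replicates 5 and 6 at 11.0 and 11.4 with calcitriol and 9.75 and 10.04 with vehicle, and replicate 9 at 7.30 with calcitriol and 7.19 with vehicle. Ccdc33, a gene on the other strand that overlaps the Stra6 locus without sharing exon bases, had 702 counts in calcitriol and 657 counts in vehicle libraries and a log2 change of 0.22 ± 0.16 (edgeR, adjusted p = 0.336).

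Crabp2 (ENSMUSG00000004885, chr3:87948666-87953376), the protein that hands retinoic acid to its nuclear receptors, ranged from 15.6 to 41.4 CPM in calcitriol libraries with a median of 27.4, and from 66.5 to 115 CPM in vehicle libraries with a median of 93.7. The groups did not overlap. The means were 26.8 ± 7.18 CPM with calcitriol and 90.5 ± 16.8 CPM with vehicle (SD, n = 11 each), and the log2 change was -1.74 ± 0.14. Of the genes tested, 1.59% had every calcitriol value under the lowest vehicle value, and 2.77% had every calcitriol value over the highest one.

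Aldh1a3 (ENSMUSG00000015134, chr7:66390890-66427517), an enzyme that makes retinoic acid from retinaldehyde, was scarce in both groups. Calcitriol libraries held 0 to 0.979 CPM with a median of 0.165, and vehicle libraries 1.78 to 6.84 CPM with a median of 2.82. In total there were 27 counts with calcitriol, 3 of the 11 libraries having none, and 297 counts with vehicle, all 11 libraries having some. The groups did not overlap, and the log2 change was -3.36 ± 0.39. Aldh1a3 passed the filter on the strength of its vehicle libraries. The other retinaldehyde dehydrogenases were nearly absent: Aldh1a1 had 0 counts in all 22 libraries, and Aldh1a2, the form used by intestinal dendritic cells, had 0 counts in calcitriol and 1 in vehicle libraries.

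Dhrs3 (ENSMUSG00000066026, chr4:144892827-144928209), the reductase that returns retinaldehyde to retinol, differed in the opposite direction. It ranged from 6.45 to 27.7 CPM in calcitriol libraries with a median of 9.04, and from 0.626 to 2.82 CPM in vehicle libraries with a median of 1.35. Every calcitriol library was above every vehicle library. The means were 11.8 ± 7.23 CPM with calcitriol and 1.41 ± 0.587 CPM with vehicle (SD, n = 11 each), and the log2 change was 3.0 ± 0.28. Calcitriol replicates 1 and 2, which stood apart on the second component, held 24.6 and 27.7 CPM, against 6.45 to 10.2 CPM in the other 9 calcitriol libraries. Without replicates 1 and 2 of both groups the log2 change was 2.71. The same calcitriol libraries had the highest levels of Cyp24a1, the enzyme that degrades calcitriol and a direct target of the vitamin D receptor, at 62.7 and 75.7 CPM against 16.6 to 27.0 CPM in the other 9.

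Rdh10 (ENSMUSG00000025921, chr1:16105774-16133734), the dehydrogenase that makes retinaldehyde from retinol, ranged from 15.2 to 28.1 CPM in calcitriol libraries with a median of 19.3, and from 16.3 to 28.5 CPM in vehicle libraries with a median of 20.5. The groups overlapped almost fully and the log2 change was -0.13 ± 0.12. Dhrs3 and Rdh10 catalyse opposite steps, so their counts were also set against each other within each library, a ratio that no scaling factor touches. With 0.5 added to each count, the log2 ratio of Dhrs3 to Rdh10 ranged from -1.60 to 0.45 in calcitriol libraries with a median of -1.24, and from -5.27 to -2.80 in vehicle libraries with a median of -3.93. The groups did not overlap. The means differed by 3.05, being -0.94 ± 0.62 with calcitriol and -3.98 ± 0.64 with vehicle (SD, n = 11 each). Because Rdh10 hardly differed between the groups, this ratio mostly restates the difference of Dhrs3 and is not a separate result.

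**Figure D1:**
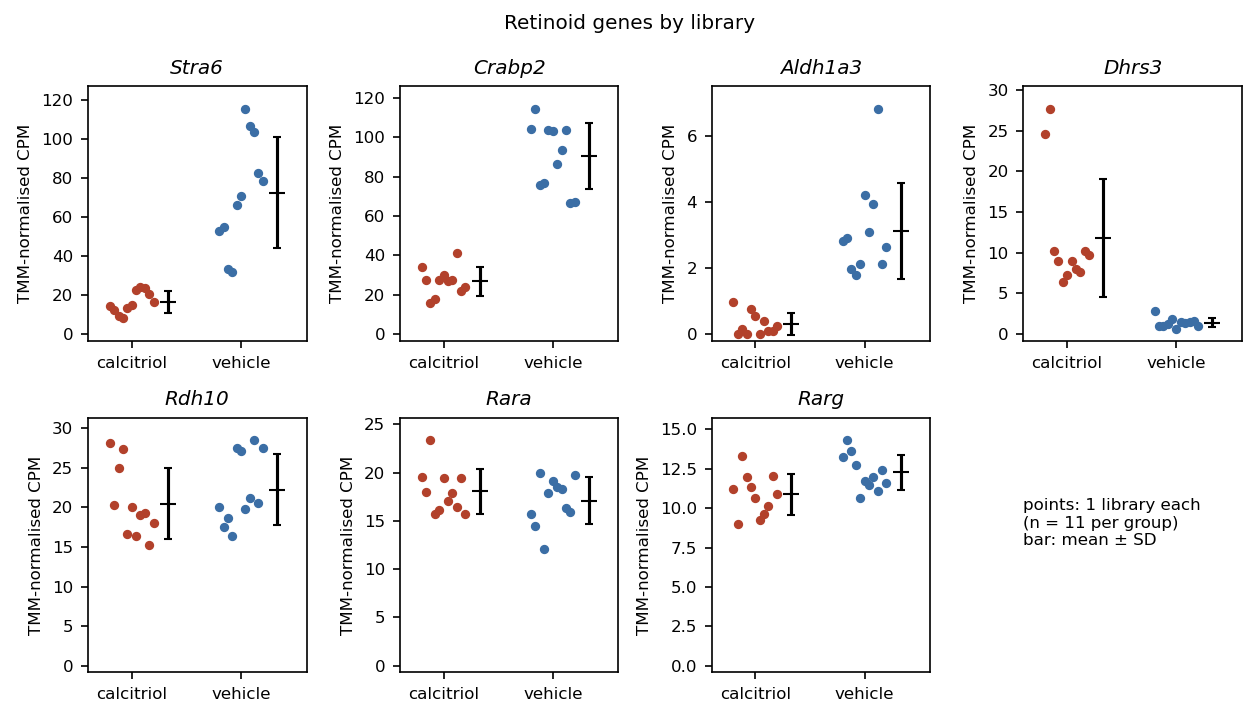
TMM-normalised CPM of the 7 genes that passed the filter, 1 point per library, in 11 calcitriol libraries on the left and 11 vehicle libraries on the right of each panel, with the mean ± SD as a bar. Stra6, Crabp2 and Aldh1a3 were lower and Dhrs3 was higher in every calcitriol library than in any vehicle library, whereas Rdh10, Rara and Rarg overlapped.

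Of the retinoic acid receptors, Rara and Rarg were expressed in every library, and their levels overlapped between the groups. Rara (ENSMUSG00000037992, chr11:98927818-98974942) ranged from 15.7 to 23.4 CPM in calcitriol libraries with a median of 17.9, and from 12.1 to 19.9 CPM in vehicle libraries with a median of 17.9, a log2 change of 0.08 ± 0.09. Rarg (ENSMUSG00000001288, chr15:102234938-102257517) ranged from 9.02 to 13.3 CPM with calcitriol, with a median of 10.9, and from 10.7 to 14.3 CPM with vehicle, with a median of 12.0. Its log2 change was -0.17 ± 0.08, and 5 of 11 calcitriol libraries lay below every vehicle library. Measured as CPM per kb of exon, Rara held 61.8% ± 3.16 of the RAR transcripts in calcitriol and 57.4% ± 5.00 in vehicle libraries, and Rarg 38.2% ± 3.16 and 42.6% ± 5.06 (SD, n = 11 each).

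Rarb (ENSMUSG00000017491, chr14:16430839-16819156) was not detected with calcitriol: it had 0 counts in the 11 calcitriol libraries, which allows a level of up to 0.0324 CPM by a floor of 3 counts over the group, and 3 counts in 2 of the 11 vehicle libraries. Rarb shares 1793 exon bases with Top2b on the other strand. Top2b, a DNA topoisomerase, had 30190 counts in calcitriol and 25753 counts in vehicle libraries, against the 0 and 3 counts of Rarb. Cyp26b1 (ENSMUSG00000063415, chr6:84571414-84593908), a retinoic acid hydroxylase, had 4 counts in 4 calcitriol libraries and 5 counts in 3 vehicle libraries. The ratio of calcitriol to vehicle was 0.831, with an exact 95% interval of 0.165 to 3.86 that covers counting error only, so a difference was not detectable at this depth.

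Ordered by CPM per kb of exon in vehicle libraries, Crabp2 came first at 68.5 ± 12.7, followed by Stra6 at 12.4 ± 4.86, Rdh10 at 5.35 ± 1.08, Rara at 3.91 ± 0.56, Rarg at 2.88 ± 0.26, Aldh1a3 at 0.679 ± 0.315 and Dhrs3 at 0.482 ± 0.20 (SD, n = 11). With the longest transcript as the length in place of all exon bases, Stra6 was at 23.5 and Crabp2 at 97.2 CPM per kb, and the order was the same. Libraries overlapped between neighbours in this order except for Crabp2 and Stra6 and for Rarg and Aldh1a3. Stra6 and Rdh10 overlapped through the lowest Stra6 libraries. Crabp2 exceeded 94.1% of all tested genes per kb and Dhrs3 4.36%. In calcitriol libraries the order was Crabp2 at 20.2 ± 5.43, Rdh10 at 4.92 ± 1.06, Rara at 4.14 ± 0.53, Dhrs3 at 4.04 ± 2.47, Stra6 at 2.82 ± 0.96, Rarg at 2.55 ± 0.31 and Aldh1a3 at 0.0645 ± 0.0732 CPM per kb (SD, n = 11). Here the libraries of Rdh10, Rara, Dhrs3, Stra6 and Rarg overlapped between neighbours, while Crabp2 lay above and Aldh1a3 below all of them. Dhrs3 stood in the middle of the order with calcitriol and at its foot with vehicle.

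**Figure D2:**
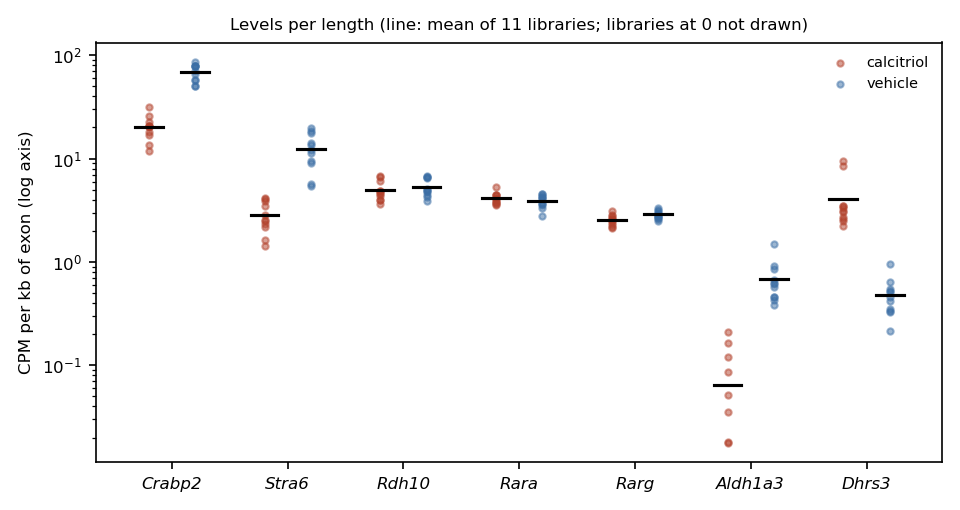
CPM per kb of exon, on a log axis, for the 7 genes in calcitriol libraries (left of each pair) and vehicle libraries (right), with 1 point per library and a line at the mean of 11; the 3 calcitriol libraries with no Aldh1a3 count are not drawn. The means of Crabp2 and Stra6 were 20.2 and 2.82 with calcitriol and 68.5 and 12.4 with vehicle, and that of Dhrs3 was 4.04 with calcitriol and 0.482 with vehicle.

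The rest of the pathway was read from 4 lists of 75 other retinoid genes, of which 34 passed the filter. Of these, 9 rose and 11 fell in edgeR's test over all genes, 58.8% against the background of 31.5%, with a median log2 change of -0.02 against -0.01 over all tested genes. Scaled to total counts alone, 6 of the 34 were higher and 15 lower. All lists were chosen with earlier results of these data known, so nothing is read from their shares past the threshold, here or below. Of 11 genes for carriers and binding proteins, 2 passed the filter. Fabp5, a fatty acid binding protein that can also carry retinoic acid, fell to 41.3 ± 6.88 CPM with calcitriol, against 60.0 ± 8.69 CPM with vehicle (SD, n = 11 each), a log2 change of -0.54 ± 0.09 (edgeR, adjusted p = 3.72e-05). Within a library, the log2 ratio of Crabp2 to Fabp5 counts ranged from -0.94 to -0.20 with calcitriol and from 0.27 to 0.88 with vehicle. Crabp2 thus had fewer counts than Fabp5 in every calcitriol library and more in every vehicle library, but counts are not scaled to gene length. Per kb of exon the mean of Crabp2 was above that of Fabp5 in both groups. It was 20.2 against 11.6 CPM per kb with calcitriol and 68.5 against 16.8 with vehicle. Crabp1 had 6 counts in calcitriol and 1 in vehicle libraries.

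Of 33 genes for other enzymes, 10 passed the filter, of which 1 rose and 4 fell, 50% in all against the background of 31.5%, with a median log2 change of -0.14. Lipe, hormone-sensitive lipase, which also splits retinyl esters, fell to a median of 49.4 CPM with calcitriol, against 92.1 CPM with vehicle (log2 change -0.87 ± 0.09, edgeR adjusted p = 5.67e-08), and all 11 calcitriol libraries were below every vehicle library. Rdh11, a retinaldehyde reductase, changed by -0.49 ± 0.07, and Dgat1, which can esterify retinol besides its main product triglyceride, by -0.66 ± 0.17 (edgeR, adjusted p = 7.36e-06 and 0.00383). Rdh12, named after its value was seen, was the other gene that fell (log2 change -0.48 ± 0.13, edgeR adjusted p = 0.00628). Retsat, which saturates retinol, rose by 0.35 ± 0.08 (edgeR, adjusted p = 0.00127). Lrat, the main enzyme that esterifies retinol, had 0 counts with calcitriol and 4 with vehicle.

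Cyp26a1, the retinoic acid hydroxylase whose window holds the repeat shown above, did not pass the filter but was counted in every calcitriol library. It ranged from 0.547 to 4.06 CPM in calcitriol libraries with a median of 1.33, and from 0 to 0.706 CPM in vehicle libraries with a median of 0.275. In total there were 153 counts with calcitriol and 31 with vehicle, where 8 of 11 libraries had any, a ratio of 5.13 with an exact 95% interval of 3.47 to 7.81 for counting error only. Of the 11 calcitriol libraries, 9 lay above every vehicle library. With the filter relaxed to at least 1 count over all libraries, edgeR gave a log2 change of 2.39 ± 0.38 and an adjusted p of 2.03e-06 over 27301 genes. Calcitriol replicates 1 and 2 were again highest, at 4.06 and 3.54 CPM, and without replicates 1 and 2 of both groups the ratio was 4.40. Cyp26c1 had 41 counts with calcitriol and 34 with vehicle, a ratio of 1.25 with an interval of 0.776 to 2.04.

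Of 18 genes for RXR partners and coregulators, 17 passed the filter, of which 6 rose and 3 fell, 52.9% in all against the background of 31.5%, with a median log2 change of 0.00. Scaled to total counts alone, 3 rose and 6 fell, beside 1319 higher and 2878 lower among all 11905 genes. Rxra ranged from 30.7 to 62.2 CPM with calcitriol, with a median of 46.3, and from 56.8 to 102 CPM with vehicle, with a median of 70.6. It fell by 0.68 on the log2 scale (log2 change -0.68 ± 0.11, edgeR adjusted p = 4.27e-05), with 10 of 11 calcitriol libraries below every vehicle library. Rxrb had 63.9 ± 7.51 CPM with calcitriol and 67.9 ± 5.84 CPM with vehicle (log2 change -0.09 ± 0.06, edgeR adjusted p = 0.271), and Rxrg had 11 counts with calcitriol and 3 with vehicle. The share of Rxra among RXR transcripts per kb was 34.4% ± 4.18 with calcitriol and 44.1% ± 6.17 with vehicle (SD, n = 11 each). Nrip1, a corepressor that is itself a known retinoic acid target, rose to 169 ± 29.9 CPM with calcitriol against 89.9 ± 23.2 CPM with vehicle (0.91 ± 0.13, edgeR adjusted p = 6.75e-06). The coactivator Ncoa2 rose by 0.27 ± 0.05, and Carm1, a methyltransferase that assists coactivators, changed by -0.39 ± 0.07 (edgeR, adjusted p = 0.000149 and 6.56e-05).

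Of 13 genes known to respond to retinoic acid in some tissue, 5 passed the filter, and 2 of them rose and 3 fell, against 16.1% higher and 15.5% lower over all tested genes. Rai14, first described as induced by retinoic acid in retinal pigment cells, fell to 24.3 ± 10.2 CPM with calcitriol against 94.2 ± 20.0 CPM with vehicle (SD, n = 11 each), a log2 change of -1.99 ± 0.17 (edgeR, adjusted p = 5.22e-09). Hic1, a transcription factor induced by retinoic acid in intestinal immune cells of the mouse, fell to 18.0 ± 8.28 CPM with calcitriol against 46.4 ± 7.82 CPM with vehicle (-1.31 ± 0.21, edgeR adjusted p = 5.14e-05). For both genes all 11 calcitriol libraries were below every vehicle library, although the highest calcitriol and the lowest vehicle library of Hic1 nearly met, at 28.13 and 28.14 CPM. Calcitriol replicates 1 and 2 held the least Hic1, at 5.46 and 6.76 CPM, and without replicates 1 and 2 of both groups its log2 change was -1.15. Rai14, which also fell, was instead highest in these replicates, at 43.1 and 44.8 CPM against 14.2 to 24.4 CPM in the other calcitriol libraries. Vehicle replicates 1 and 2 held the most Rai14 as well, at 129 and 134 CPM against 75.1 to 101 CPM in the other vehicle libraries. Itga4 and Itgb7 encode the chains of the gut homing integrin α4β7, and they moved in opposite directions. Itgb7 rose to 311 ± 36.0 CPM with calcitriol against 223 ± 36.6 CPM with vehicle (0.48 ± 0.08, edgeR adjusted p = 4.66e-05). Itga4, named after its value was seen, had 2.44 ± 1.02 CPM with calcitriol and 6.60 ± 3.36 CPM with vehicle (-1.41 ± 0.30, edgeR adjusted p = 0.000724). Vehicle replicate 2 held only 0.682 CPM of Itga4, so 1 calcitriol library lay below every vehicle library. Ccr9, the chemokine receptor of gut homing, had 8 counts with calcitriol and 5 with vehicle. Tgm2, a transglutaminase induced by retinoic acid in macrophages, had the highest level of the 5 genes and rose to 3982 ± 769 CPM with calcitriol against 2600 ± 575 CPM with vehicle (0.61 ± 0.13, edgeR adjusted p = 0.000612).

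**Figure D3:**
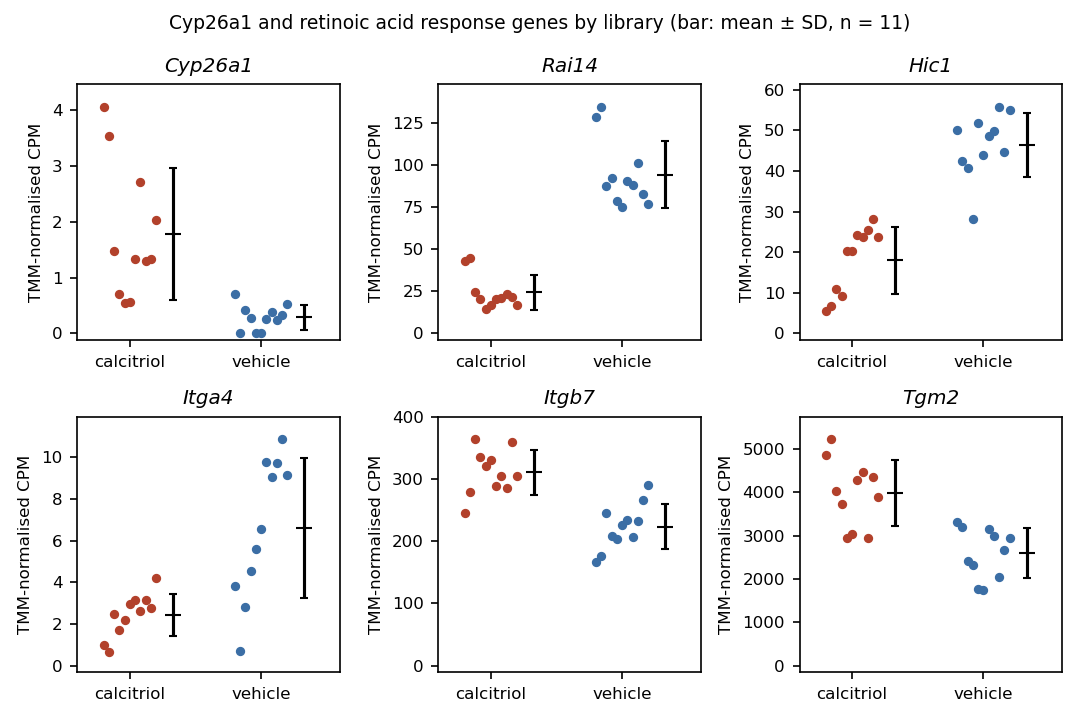
TMM-normalised CPM of Cyp26a1 and of the 5 retinoic acid response genes that passed the filter, 1 point per library, calcitriol left and vehicle right in each panel, with the mean ± SD of 11 libraries. Cyp26a1, Itgb7 and Tgm2 had higher means with calcitriol, and Rai14, Hic1 and Itga4 lower ones.

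Among 43 other nuclear receptor genes, 18 passed the filter, and 2 rose and 5 fell, 38.9% against the background of 31.5%. The glucocorticoid receptor Nr3c1 rose by 0.60 ± 0.05, Pparg changed by -0.51 ± 0.05 and the vitamin D receptor Vdr by -1.73 ± 0.31 (edgeR, adjusted p = 7.69e-10, 2.11e-08 and 0.000122). Rara and Rarg, at 0.08 and -0.17, lay closer to 0 than these 3, which were named for having the smallest p. The 11 receptors here that did not pass the threshold ran from -0.18 (Thrb) to 0.25 (Nr2c1). Both Rara and Rarg fell inside that range.

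**Figure D4:**
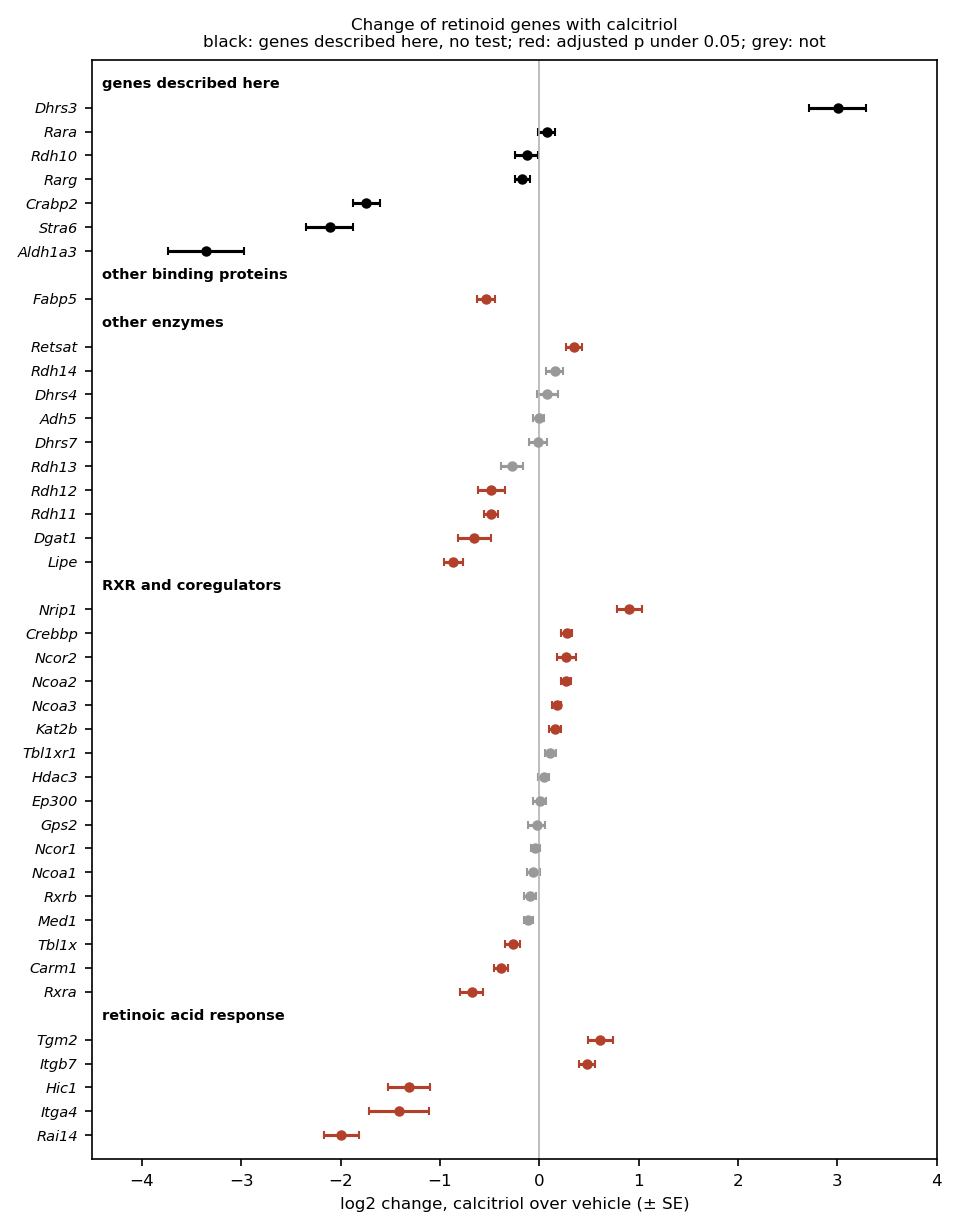
Log2 change of calcitriol over vehicle with its standard error, for the 7 genes described here (black, not tested) and for other retinoid genes that passed the filter, by list (red: edgeR adjusted p under 0.05; grey: not). Aldh1a3 at -3.36 and Dhrs3 at 3.0 mark the ends of the range, and the RXR and coregulator list spans -0.68 to 0.91.

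The genes lie on 9 different chromosomes. Of their 18 nearest tested neighbours, 1 on each side, 3 rose and 1 fell, 22.2% against the background of 31.5%. Scaled to total counts alone, 2 were higher and 3 lower. Lrrk1, a kinase gene 2540 bases from Aldh1a3, fell by 1.01 on the log2 scale (log2 change -1.01 ± 0.18, edgeR adjusted p = 8.45e-05). Itgb7 lies 2994 bases from Rarg, and Rpl7 1112 bases from Rdh10 (0.15 ± 0.04, edgeR adjusted p = 0.0105). The call of Rpl7 was lost with total counts alone and with partner libraries, each other's best correlated within a group, summed (edgeR, adjusted p = 0.0959 and 0.0852). The third neighbour that rose was Top2b (0.26 ± 0.05, edgeR adjusted p = 0.000294). The neighbours of Stra6, Crabp2 and Dhrs3 had adjusted p-values of 0.0542 or higher.

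Within groups the 7 genes varied along different lines. After removing each group's mean from log2 CPM, the pair of highest Pearson r over 22 libraries was Rdh10 and Rara (r = 0.43, Spearman rho = 0.39), while Aldh1a3 and Crabp2 had the highest rho (r = 0.39, rho = 0.47). Stra6 and Crabp2 had r = 0.38 (rho = 0.19), and without replicates 1 and 2 of both groups theirs was the highest r, at 0.52 against 0.35 for Rdh10 and Rara. Stra6 and Rarg ran against each other (r = -0.58, rho = -0.58). Taken by group, r was -0.56 with calcitriol and -0.63 with vehicle for Stra6 and Rarg. It was 0.62 and 0.13 for Stra6 and Crabp2, and 0.29 and 0.56 for Rdh10 and Rara. Some pairs changed sign between groups, such as Stra6 and Rdh10 at -0.68 and 0.54, with r = -0.02 over all 22 libraries. These values are descriptions with no p, since libraries share depth and possibly mice. Over 10412 other genes (10413 for Aldh1a3) the pattern of Stra6 was most like that of the neurofilament gene Nefh (r = 0.94, rho = 0.94) and of Timd2 (r = 0.91, rho = 0.88). Nefh had a log2 change of -0.16 ± 0.17 between groups and Timd2 one of -2.14 ± 0.22 (edgeR, adjusted p = 0.521 and 1.11e-07). Crabp2 was most like Nhp2 (r = 0.92, rho = 0.88) and Hars (r = 0.90, rho = 0.86). For Dhrs3 the nearest were C130074G19Rik (r = 0.85, rho = 0.67) and Tcf4 (r = 0.83, rho = 0.82), and without replicates 1 and 2 of both groups the values were r = 0.43 and r = 0.77. Rdh10 was most like Ppt1 (r = 0.75, rho = 0.75) and the retinol saturase gene Retsat (r = 0.74, rho = 0.72), Rara like Rplp2 and Ninj1 (r = 0.77 and 0.73, rho = 0.73 and 0.72), Rarg like Glod4 and Cir1 (r = 0.77 and 0.75, rho = 0.75 and 0.72), and Aldh1a3 like Naa10 and Sod2 (r = 0.78 and 0.74, rho = 0.69 and 0.68). All these likenesses are the highest r among 10412 or 10413 genes over only 22 libraries. Picking the highest of so many raises r by itself, and no shared function is read from them.

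Markers of other cells that can make or use retinoids were low or mixed. Of 10 dendritic cell genes, 5 were at or under 1 CPM on average and Clec9a had 0 counts in all libraries, while Batf3 and Zbtb46 fell, by 0.63 and 0.90 on the log2 scale (edgeR, adjusted p = 0.00102 and 5.56e-05). H2-Ab1 and Itgax, the other genes of the list that passed the filter, had log2 changes of 0.11 and 0.00 (edgeR, adjusted p = 0.444 and 0.992). Batf3 is also known in activated T cells. The summed level of the list was 125 to 231 CPM in calcitriol and 174 to 259 CPM in vehicle libraries. H2-Ab1 and Batf3 were its largest parts, with means of 96.9 and 75.9 CPM with calcitriol and 89.0 and 116 CPM with vehicle. Of 8 macrophage and monocyte genes 7 were at or under 1 CPM, with Fcgr1 at 0, and the sum was 6.50 to 14.5 CPM with calcitriol and 4.87 to 10.7 CPM with vehicle. B cell, mast cell and basophil, and CD8 and NK lists summed to at most 9.53 CPM in any calcitriol library and 8.36 CPM in any vehicle library, with Ncr1 at 0. Of 8 stromal and epithelial genes 5 were at or under 1 CPM, and Epcam and Pecam1 rose by 1.19 and 0.84 (edgeR, adjusted p = 6.91e-07 and 3.46e-07). Krt18, the only other one past the filter, leaned the opposite way without passing the threshold. It averaged 8.61 CPM in calcitriol and 10.1 CPM in vehicle libraries (edgeR, adjusted p = 0.116). The 8 genes summed to 73.1 to 124 CPM with calcitriol and 47.7 to 81.1 CPM with vehicle. The part of such cells in the differences described above was not tested.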

How the data were processed

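The authors deposited a table of raw counts, with Ensembl genes as rows and the 22 libraries as columns, each column carrying the title of its sample. The submitters' processing notes name build GRCm38 and the tools HTSeq 0.13.5 and STAR 2.7.10a. What each tool did, how strand was set and which gene models were counted is not given in the sources used here, so reads of antisense genes cannot be told apart with certainty. Per the labels' protocols, libraries came from a stranded total RNA kit with globin removal. Symbols, coordinates and exon lengths (union of exons) came from GENCODE M21 on the same build, where 259 identifiers had no match.

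Genes were kept with filterByExpr and scaled with TMM factors in edgeR 4.0.16 (R 4.3.3). Calcitriol was compared with vehicle by the robust quasi-likelihood F test, no covariate, Benjamini-Hochberg over 11905 genes, threshold 0.05. For genes under the filter, counts per group and an exact 95% interval of their ratio are given. The fits were tried on simulated counts with few changed genes, drawn independently for each library. Resemblance between libraries was not simulated, so that trial cannot vouch for the p-values given here. The 9 genes and all lists were chosen with earlier results of these data known, and no list was given a set test. Named are all 9 genes, up to 4 genes of smallest p per list and, in every case, Rxra, Rxrb, Rxrg, Crabp1, Aldh1a1, Aldh1a2 and Cyp26a1. A few genes named by that choice are not reported here. The 2 genes most like each gene were chosen by Pearson r among protein-coding genes averaging 2 CPM or more, on log2 CPM with a prior count of 2. Alternatives were DESeq2 1.42.0, limma-voom (limma 3.58.1), other scaling factors, other filters, a non-robust fit, summed partner libraries, and leaving out single libraries or replicates 1 and 2 of both groups.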

Additional observations from a re-analysis of the deposited data

How the results depend on the processing

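Over 31 alternative settings, 22 of which left out 1 library each, the log2 changes of the 7 genes moved by less than the spread between libraries and kept their signs, Stra6 lying between -2.18 and -2.02, Crabp2 between -1.83 and -1.69, Aldh1a3 between -3.66 and -3.17 and Dhrs3 between 2.71 and 3.13. Rdh10 lay between -0.23 and -0.08, Rara between 0.007 and 0.10 and Rarg between -0.24 and -0.12. For Rdh10 and Rara the spread, an SD of 0.29 and 0.20, exceeds the change itself, so that bound says little. Of the 9 genes, 3 to 4 passed the threshold with lower values, depending on the setting, and 1 with higher values. Scaled to total counts alone, 2878 genes were lower in place of 1844, and 3 neighbours were lower in place of 1; the cause was not tested. With single libraries left out, 3 to 5 neighbours were higher and 1 to 2 lower: 5 were higher without calcitriol replicate 3 or 6, and 2 lower without calcitriol replicate 9. Rxrb was lower with total counts alone (log2 change -0.16, adjusted p = 0.0292). Partner libraries, each other's best correlated of a group, left 7 samples per group when summed. No paired analysis was made, because the labels give no replicate numbers and tie no library to another. The resemblance of libraries across groups on the second component entered no fit, so standard errors and p-values take no account of it. Counts limit Aldh1a3, Cyp26a1, Cyp26b1 and Rarb most.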
